A study of Mus musculus with 48 samples.

Results

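The 6 genes described here encode transcription factors of the primitive endoderm (PrE): the GATA zinc finger factors Gata6 and Gata4, the SoxF factors Sox17 and Sox7, and the forkhead factors Foxq1 and Foxa2. They were chosen by name, matched by symbol to their Ensembl identifiers in the GRCm38 annotation, and are 6 of the 49671 genes in the count table, with reads in 1 cell or more for 21943 of them. The question was which of these factors were detected together in a cell, and whether detection was nested in the order Gata6, Sox17, Gata4, Sox7, so that a cell with a later factor also held the earlier ones. ICM (inner cell mass) cells were taken from 3 blastocysts at E3.75, obtained from crosses of PDGFRa::H2B-GFP/+ mice, which carry a human H2B-GFP cassette at the Pdgfra locus, with F1 hybrids (C57BL/6JxCBA/J). Embryos positive for the reporter with a salt-and-pepper pattern of GFP were used, the trophectoderm was removed by immunosurgery, and Smart-seq2 libraries, which cover whole transcripts and carry no molecular identifiers, were made from 48 individual cells. The sample titles give the genotype as WT, while the growth protocol names the reporter cross, and no label gives the Pdgfra genotype of a single cell. There is 1 group, and no cell is assigned by its label to the precursors of the epiblast (pEPI) or of the PrE (pPrE).

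In the mouse blastocyst, ICM cells first express the epiblast factor Nanog and the PrE factor Gata6 together, and FGF4 signalling through ERK favours PrE over epiblast identity. GATA6 is required for PrE formation, SOX17 and GATA4 mark PrE precursors as they separate from the epiblast, and SOX7 appears in more mature PrE. FOXA2 is a pioneer factor of visceral and definitive endoderm.

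No label names the embryo of a cell, so the 48 cells form 1 sample. No test was run between cells, since they do not replicate a group, and an SD is the spread between cells. Total counts per cell ranged from 1718970 to 7342785. A factor was called detected at 10 CPM or more (CPM, a gene's counts per 1000000 counts of the cell), which is 17.2 counts in the shallowest and 73.4 in the deepest cell. A count of 0 allows up to 3 counts, or 0.409 to 1.75 CPM depending on the cell. The exact binomial (Clopper-Pearson) 95% intervals and these floors cover counting error only. Levels are given as FPKM, counts per kilobase of exon scaled to the library size, so that genes of unlike length can be compared. The ICM marker Pou5f1 had 224 to 473 FPKM in the 48 cells. Of 8 trophectoderm markers, the defining gene Cdx2 reached 10 CPM in 1 cell, but Eomes did so in 19, Gata2 in 10, Gata3 in 5 and each of the other 4 in 1 or 2, and the sum of all 8 ranged from 0 to 150 CPM with a median of 16. Counts on 4 Y-linked genes separated 29 cells (242 to 1298 counts) from 19 cells (at most 1 count), and results are also given within these sets because the embryos may differ in sex. The cells are named by well, with 6 letters of 8 wells each. All cells of letters A, B and E had Y-linked counts and no cell of letter D did. Differences between the Y sets therefore cannot be told apart from differences between letters.

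The earlier factors were found in most cells and the later ones in few. Gata6 (ENSMUSG00000005836, chromosome 18, 11052064 to 11085635) was detected in 41 of 48 cells (85.4%, interval 72.2% to 93.9%). Its level ranged from 0 to 48.6 FPKM, with a median of 13.6 and a mean of 16.7 ± 14.3 (SD, n = 48 cells). Of the other 7 cells, 4 had no count and the highest of the 3 others had 20 counts.

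Sox17 (ENSMUSG00000025902, chromosome 1, 4490931 to 4497354) was detected in 36 cells (75%, 60.4% to 86.4%), with 0 to 106 FPKM and a median of 8.76. Its mean was 27.6 ± 32.7 FPKM (SD, n = 48 cells), so that the spread between cells was wider than the mean. Gata4 (ENSMUSG00000021944, chromosome 14, 63198922 to 63271692) was detected in 29 cells (60.4%, 45.3% to 74.2%), with 0 to 117 FPKM and a median of 16.4. Its mean was 28.1 ± 32 FPKM (SD, n = 48 cells). Sox7 (ENSMUSG00000063060, chromosome 14, 63943673 to 63950732) was detected in 14 cells (29.2%, 17% to 44.1%) and had no count in 30. Its level ranged from 0 to 75.5 FPKM, with a median of 0, and the cell in well C6 alone held 48.6% of all Sox7 counts. In the 14 cells with Sox7 the median was 8.16 FPKM, against 45.9 FPKM for Gata4 in the 29 cells with Gata4.

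Foxq1 (ENSMUSG00000038415, chromosome 13, 31556134 to 31560976) was detected in 21 cells (43.8%, 29.5% to 58.8%), with 0 to 41.2 FPKM and a median of 0.121. Its exons overlap those of a gene on the opposite strand, so this share and these levels are uncertain. Foxa2 (ENSMUSG00000037025, chromosome 2, 148042877 to 148046969) was the rarest, detected in 4 cells (8.33%, 2.32% to 20%), with 0 to 12.5 FPKM and no count in 42 cells. Neighbours in this order of detection, Gata6 and Sox17, Sox17 and Gata4, Gata4 and Foxq1, and Foxq1 and Sox7, had overlapping intervals, while the intervals of Gata6 and Sox7 did not overlap. Between 2 and 8 cells per factor had counts that were above 0 but below 10 CPM. Detected cells also lay close above the minimum, with lowest values of 10.1 CPM for Sox7, 11.1 for Foxa2 and 12.3 for Foxq1. At a minimum of 50 CPM, Sox7 was detected in 3 cells, Foxq1 in 10 and Foxa2 in 0.

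**Figure D1:**
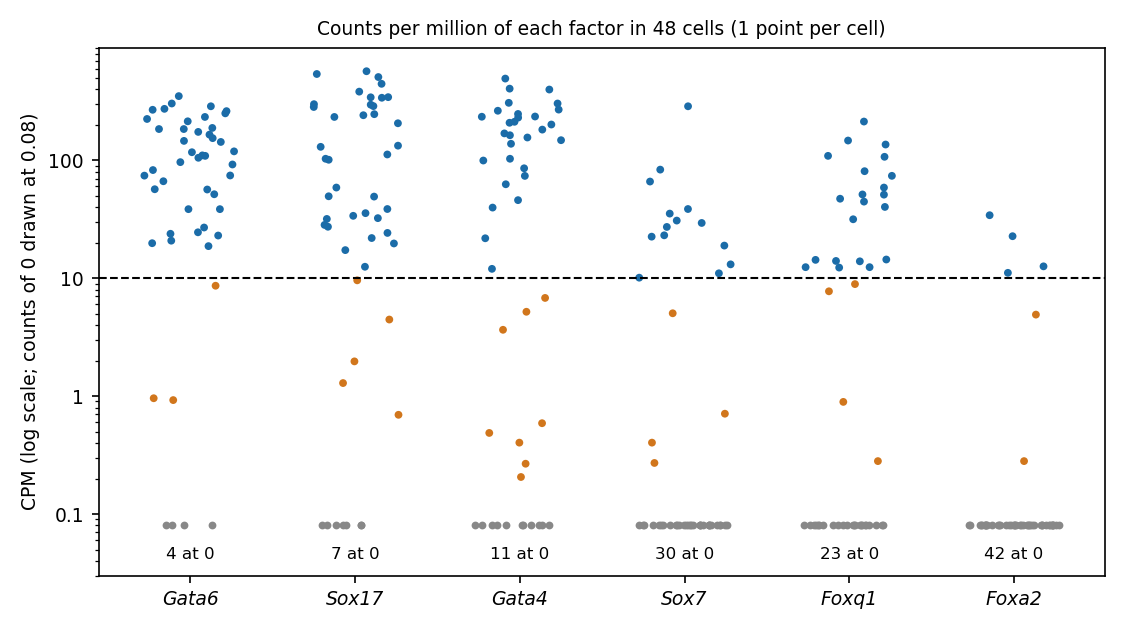
Counts of each factor in CPM (log axis), with 1 point per cell and 48 cells per factor; blue points are at or above the dashed line at 10 CPM, orange points below it, and grey points are counts of 0, drawn at the bottom. The number of cells at 0 goes from 4 for Gata6 to 42 for Foxa2, and few cells lie between 0 and 10 CPM.

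Most cells had a detection pattern that fit the nested order of the 4 factors. Of the 16 possible patterns, the 5 that fit the order Gata6, Sox17, Gata4, Sox7 held 43 of 48 cells (89.6%, 77.3% to 96.5%). These were 4 cells with none of the factors, 5 with Gata6 only, 8 with Gata6 and Sox17, 15 with Gata6, Sox17 and Gata4, and 11 with all 4. The remaining 11 patterns held 5 cells, each with a pattern of its own. No cell held Sox17 alone or Gata4 alone, but such cells could come only from the 7 cells without Gata6. Unequal detection shares alone place cells on the nested patterns. How many they would place there was not computed, so 43 of 48 does not by itself show nesting.

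All 24 orders of the 4 genes were compared by the number of cells that fit them. The named order had the most, with 43 cells. It was followed by Sox17, Gata6, Gata4, Sox7 with 38 cells and by Gata6, Gata4, Sox17, Sox7 with 36, and the lowest order had 15. The named order is also the order of the detection shares, and such an order leaves the fewest cells that can break it. The order of Sox17 and Gata4 depended on the minimum: at 50 CPM, 42 cells fit the named order and 43 the order Gata6, Gata4, Sox17, Sox7. At a minimum of 1 count the named order had 41 cells and the next 40. With a minimum per length, at 1 FPKM, 41 cells fit the named order and at most 37 any other.

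**Figure D2:**
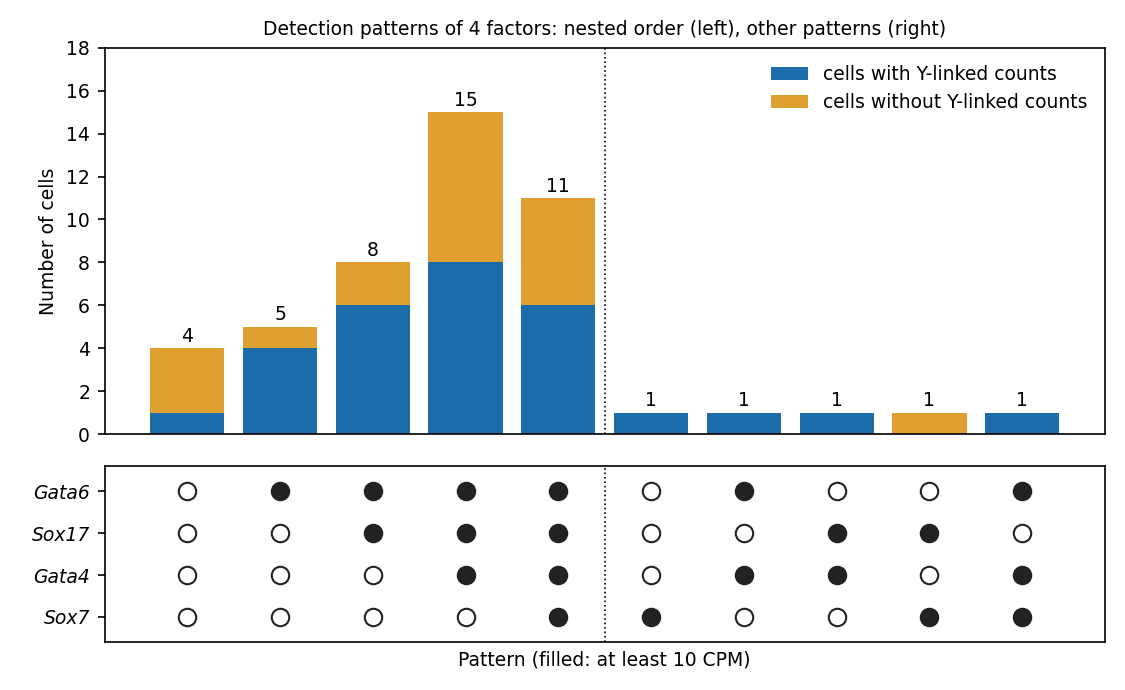
Number of cells (upper panel) with each detection pattern of Gata6, Sox17, Gata4 and Sox7 (lower panel, filled circles for at least 10 CPM), coloured by whether the cell had Y-linked counts. The 5 nested patterns on the left hold 43 cells and the 5 other patterns on the right hold 1 cell each.

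The 5 cells outside the order are shown with their values. The cell in well B8 had 465 counts of Gata6 (13.1 FPKM) and 821 of Gata4 (38.7 FPKM) but none of Sox17. The cell in A4 likewise had 109 counts of Gata6, 97 of Gata4 and 103 of Sox7 without a count of Sox17. Both therefore lacked Sox17 while holding Gata4, and their Nanog levels were 202 and 413 FPKM. The cell in A2 had 58 counts of Sox17 and 40 of Gata4 without Gata6. The cell in C7 had 47 counts of Sox17 and 38 of Sox7 (10.1 CPM, close to the minimum), with 1 count of Gata4 and none of Gata6. In B1, Sox7 was the only factor, with 238 counts (19 FPKM) and no count of Gata6, Sox17 or Gata4. These zeros came at total counts of 3346219 to 5046352, which do not show whether transcripts were lost before sequencing. All 5 cells were in wells of the letters A, B and C, where 6, 6 and 7 of 8 cells fit the order, and 8 of 8 fit it in each of the letters D, E and F. The part of the well letter in this result was not tested. Within the 29 cells with Y-linked counts 25 fit the order (86.2%), and within the 19 cells without them 18 (94.7%).

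**Figure D3:**
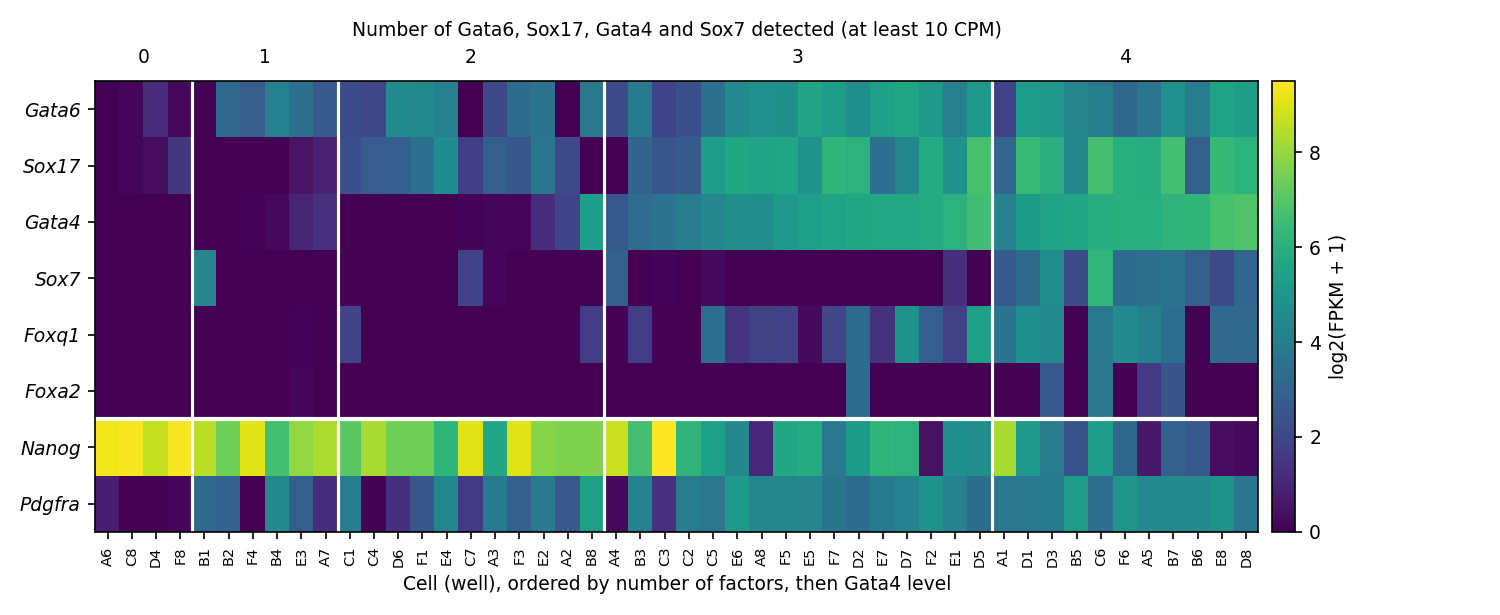
Levels of the 6 factors and of Nanog and Pdgfra (rows) in the 48 cells (columns, named by well), as log2(FPKM + 1) on the colour scale. Cells are grouped by the number of Gata6, Sox17, Gata4 and Sox7 detected, from 0 to 4, and Sox17 and Gata4 are high in the columns on the right, where Foxq1 and Sox7 also appear.

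Because Gata6 was found in nearly all cells, each pair was read against the share of all cells with the earlier factor. Of the 36 cells with Sox17, 34 held Gata6 (94.4%, 81.3% to 99.3%), an interval that includes the 85.4% of all cells, and of the 12 cells without Sox17, 7 held Gata6 (58.3%). Among all genes at 10 CPM in at least 1 cell, 22.9% were detected in as many of the Sox17 cells as Gata6 was. Of the 29 cells with Gata4, 27 held Sox17 (93.1%, 77.2% to 99.2%), and of the 19 without Gata4, 9 did (47.4%). This interval lay above the 75% of all cells with Sox17 at this minimum, but under 10 of 16 alternatives it included the share of all cells. Examples are a minimum of 1 count (74.6% to 97% against 85.4%), thinning to equal depth (76.5% to 99.1% against 77.1%) and leaving out the wells of letter B (78.9% to 99.9% against 80%), D (72% to 98.9% against 72.5%) or F (74% to 99% against 75%). It also did so within the cells holding Y-linked counts (63.6% to 98.5% against 72.4%) and within the others (73.5% to 100% against 78.9%). Of all genes, 24.6% were found in as many Gata4 cells. Of the 14 cells with Sox7, 12 held Gata4 (85.7%, 57.2% to 98.2%), an interval that includes the 60.4% of all cells, and of the 34 without Sox7, 17 held Gata4 (50%). Here 31.9% of genes were found in as many Sox7 cells. These intervals treat cells as independent and do not cover differences between embryos.

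Sox7 was not nested in Gata6 beyond the share of Gata6 in all cells. Gata6 was held by 12 of 14 cells with Sox7 (85.7%) and by 85.3% of the 34 cells without it. In the other direction, Sox7 was detected in 12 of 29 cells with Gata4 (41.4%, 23.5% to 61.1%) and in 2 of 19 without it (10.5%).

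By the number of cells that fit, the best place for Foxq1 was between Gata4 and Sox7, which is also its place by share of cells. When it was inserted at each of the 5 positions of the order, the position after Gata4 and before Sox7 kept the most cells, 40 of 48, against 36 between Sox17 and Gata4 and 32 after Sox7. Of the 21 cells with Foxq1, 21 held Gata6, 20 held Sox17 and 20 held Gata4 (95.2%, 76.2% to 99.9%), against 9 of 27 cells without Foxq1 that held Gata4 (33.3%). As a background, 23.7% of genes were found in as many Foxq1 cells as Gata4 was. The exceptions were the cell in C1, which had 57 counts of Foxq1 without Gata4, and the cell in B8 without Sox17. The place of Foxq1 before Sox7 was less clear. Of the 14 cells with Sox7, 9 held Foxq1 (64.3%, 35.1% to 87.2%), an interval that includes the 43.8% of all cells. The other 5 cells with Sox7 lacked Foxq1. Detection of Sox7 and Foxq1 overlapped in part: among the 26 cells with Gata6, Sox17 and Gata4, 9 held both, 2 only Sox7, 10 only Foxq1 and 5 neither. With Foxa2 at the end, 39 cells fit the order of all 6 factors, more than any other of the 720 orders. This too is the order of the detection shares, which leaves the fewest cells that can break it.

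Foxa2 was found only among cells with high Sox17 and Gata4. The 4 cells were those in wells C6, D2, D3 and B7, and C6 alone held 47.2% of all Foxa2 counts. Each of the 4 cells held Gata6, Sox17, Gata4 and Foxq1, while 3 of them held Sox7. Their Sox17 levels were 61.5 to 104 FPKM and their Gata4 levels 45.9 to 72.4 FPKM, both above the medians of all cells. Foxa2 itself had 4.36 to 12.5 FPKM in these cells. With 4 cells, the exact interval for a share of 100% reaches down to 39.8%. It thus includes the shares of all cells with Gata6 (85.4%), Sox17 (75%), Gata4 (60.4%) and Foxq1 (43.8%). For Sox7 the interval of 19.4% to 99.4% likewise includes the 29.2% of all cells. The share of all genes found in as many Foxa2 cells was not computed. Of the 6 genes, RefSeq's table of promoters (GRCm38.p6) held Foxa2, with 3 start sites, and had no entry for Gata6, Sox17, Gata4, Sox7 and Foxq1. The windows of 250 bases before to 50 after each start were searched on both strands for GATAA, the core of GATA sites, for ACAAT, a core of SOX sites, and for TGTTTA, a core of forkhead sites. GATAA was in 1 of the 3 windows, and in 25.4% of all 32851 windows. ACAAT and TGTTTA were in none of the 3, and in 31% and 13.4% of all windows. The window with GATAA, in capitals below, is shown as the 1 window of the 3 with a match to any of these motifs. It lies on the minus strand, within the span of the Foxa2 gene (148042877 to 148046969). A match of letters does not show a binding site, and binding was not tested.
Foxa2, chr2:148045415-148045714: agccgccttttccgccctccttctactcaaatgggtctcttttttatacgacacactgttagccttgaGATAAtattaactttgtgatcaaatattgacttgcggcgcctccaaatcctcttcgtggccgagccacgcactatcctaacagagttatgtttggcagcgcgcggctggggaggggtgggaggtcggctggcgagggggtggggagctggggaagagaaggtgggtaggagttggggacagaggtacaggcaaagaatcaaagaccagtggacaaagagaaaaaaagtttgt

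Over all cells, zeros included, the levels of Gata6, Sox17, Gata4 and Foxq1 varied together, and that of Sox7 less so. Over the 48 cells, Spearman's rho of log2(FPKM + 1) was 0.71 for Gata6 and Sox17 (Pearson's r = 0.69), 0.74 for Sox17 and Gata4 (r = 0.76), 0.77 for Sox17 and Foxq1 (r = 0.74) and 0.72 for Gata4 and Foxq1 (r = 0.73). For Sox7 it was 0.45 with Gata4, 0.34 with Sox17 and 0.00 with Gata6. These correlations are across cells that share embryos and strips, and are given as a description. The rank correlation of a factor with the total count of the cell was between -0.11 and 0.13. In the 24 cells of at least the median total, however, Gata6 was detected in 95.8%, and rho was 0.60 for Gata6 and Sox17 and 0.62 for Gata4 and Sox7. The part of depth in these values was not tested. Part of each rho comes from cells at 0. In the 27 cells with both Sox17 and Gata4, rho was 0.58, and in the 34 cells with both Gata6 and Sox17 it was 0.59. In the 12 cells with both Gata4 and Sox7 it was -0.06, in the 12 with both Gata6 and Sox7 -0.01, and in the 12 with both Sox17 and Sox7 0.59. For Foxq1, in cells with both factors, it was 0.45 with Sox17 (20 cells), 0.28 with Gata4 (20 cells) and 0.17 with Gata6 (21 cells). These values were below that of Sox7 with Sox17, but above those of Sox7 with Gata4 and with Gata6. For all cells of a set, rho was 0.71 among the 29 cells that had Y-linked counts and 0.72 among the other 19 for Gata6 and Sox17, 0.62 and 0.81 for Sox17 and Gata4, 0.59 and 0.84 for Gata4 and Foxq1, and 0.39 and 0.72 for Gata6 and Foxq1.

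**Figure D4:**
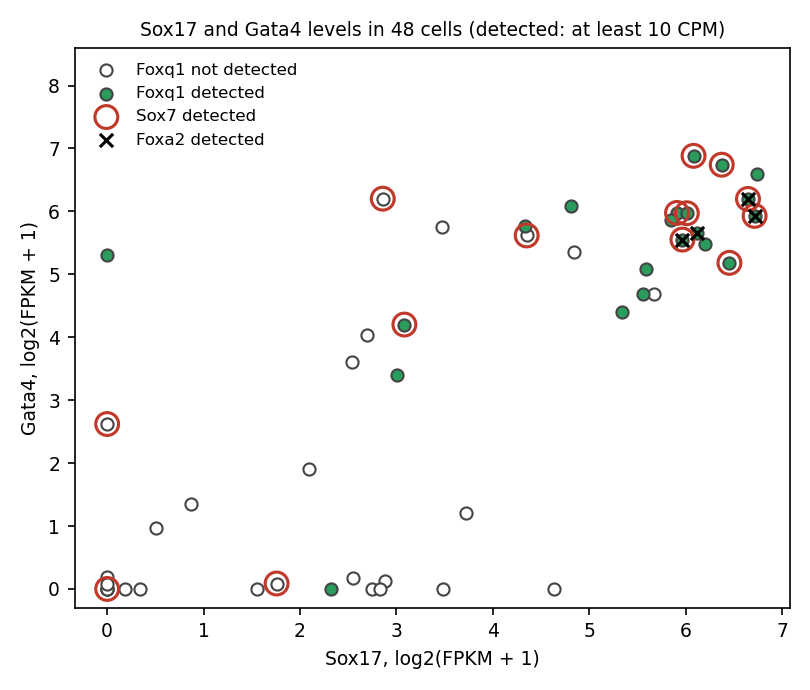
Level of Gata4 against Sox17 in 48 cells, both as log2(FPKM + 1), with 1 point per cell. Filled points held Foxq1, red rings Sox7 and crosses Foxa2; cells with Foxq1 and Foxa2 lie mostly where both factors are high, while 3 of the 14 Sox7 rings lie at Sox17 or Gata4 levels near 0.

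Gata6 had rho of 0.56 with the number of the 4 factors detected, which includes Gata6 itself, against 0.78 for Sox17, 0.84 for Gata4 and 0.63 for Sox7. In the 15 cells with Gata6, Sox17 and Gata4 but no Sox7, the median of Gata6 was 26.4 FPKM (2.75 to 48.6), and in the 11 cells with Sox7 as well it was 20.2 FPKM (2.80 to 42.9). The medians of Sox17 were 39.6 and 63.5 FPKM and those of Gata4 39.7 and 61.7 FPKM in the same cells. The ranges overlapped for all 3 genes. Total counts in these cells had medians of 4251373 and 3904008, with overlapping ranges, and the part of depth was not tested. Among the 26 cells with the 3 factors, Sox17 had a median of 61.5 FPKM in the 19 with Foxq1 and 10.1 FPKM in the 7 without it, with overlapping ranges (7.04 to 106 and 4.83 to 49.9).

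Nanog, the homeodomain factor of the epiblast, was not used to choose or order the factors, and it was lower where more of them were present. Its median was 650 FPKM (405 to 679) in the 4 cells with none of the 4 factors, 282 (100 to 537) in the 6 cells with 1, 202 (50.7 to 545) in the 11 cells with 2, 45.7 (0.342 to 724) in the 16 cells with 3 and 6.53 (0.174 to 308) in the 11 cells with 4. The cells with none and those with 4 factors did not overlap, while the groups between them did. Nanog was nonetheless detected in most cells with each factor. It was at or above 10 CPM in 36 of 41 cells with Gata6, 31 of 36 with Sox17, 24 of 29 with Gata4, 11 of 14 with Sox7, 16 of 21 with Foxq1 and 4 of 4 with Foxa2, against 43 of all 48 cells (89.6%). The highest Nanog level of all cells, 724 FPKM, was in well C3, which also held Gata6, Sox17 and Gata4 at 2.75, 4.83 and 11.2 FPKM. The cell in A1 held all 4 factors and Foxq1 with 308 FPKM of Nanog. The median total counts of the 5 groups lay between 3264122 and 4359215. The summed CPM of the 8 trophectoderm markers had medians of 29.4, 15.7, 0.903, 8.44 and 32.5 in the cells with 0 to 4 factors, and its part in these results was not tested. Among these markers Gata3, which was below the limit on the mean, had rho of 0.54 with Gata4 and 0.44 with Sox7.

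Pdgfra, the receptor gene that carries the reporter, was nearly absent where no factor was detected. Its median was 0.0614 FPKM (0 to 0.743) in the cells with none, 6.71 (0.0208 to 21.3) with 1, 6.45 (0.0525 to 40.8) with 2, 16.4 (0.186 to 34.4) with 3 and 21.1 (9.79 to 36.9) with 4. The cells with none and with 4 again did not overlap. Cells with both Pdgfra and the factor at 10 CPM were 38 of 41 for Gata6, 28 of 29 for Gata4 and 13 of 14 for Sox7, against 41 of all 48 cells (85.4%).

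**Figure D5:**
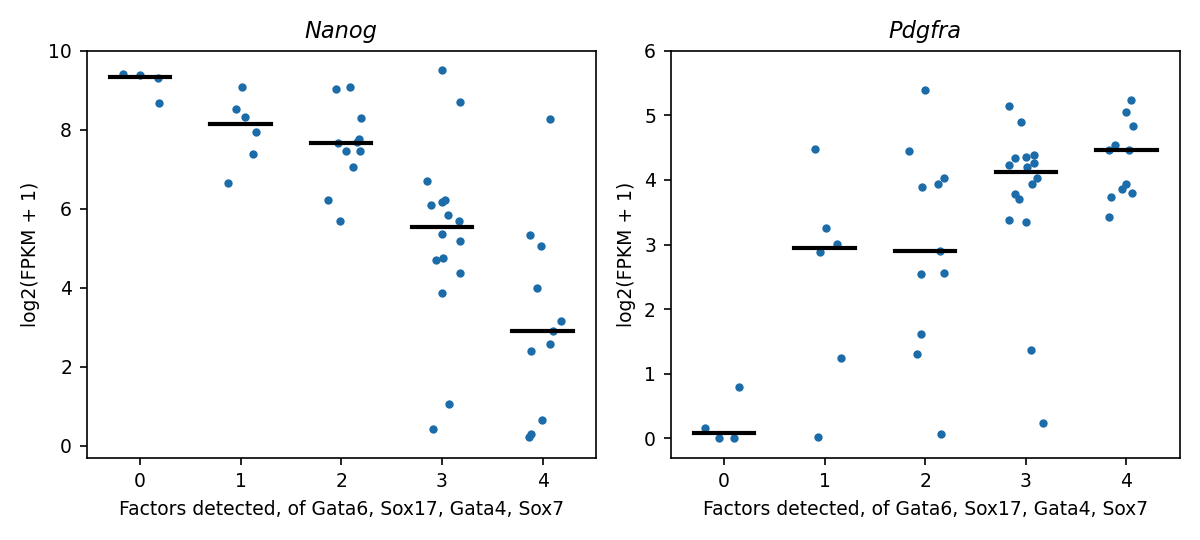
Levels of Nanog and Pdgfra, as log2(FPKM + 1), in cells with 0 to 4 of Gata6, Sox17, Gata4 and Sox7 detected (4, 6, 11, 16 and 11 cells), with 1 point per cell and black lines at the medians. Nanog is lower and Pdgfra higher in cells with more factors, with overlap between neighbouring groups.

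Genes for PrE receptors, matrix and transport had levels that went with Sox17, Gata4 and Foxq1. Of 18 such genes, 14 had a mean log2(FPKM + 1) above 0.5. Of these 14, rho over the 48 cells was at least 0.5 for 5 with Gata6, 9 with Sox17, 10 with Gata4, 3 with Sox7, 9 with Foxq1 and none with Foxa2. Over all 11188 genes the share at this limit was 0.581% for Gata6, 1.33% for Sox17, 1.17% for Gata4, 0.223% for Sox7, 1.27% for Foxq1 and 0.0358% for Foxa2. The median rho of the list was 0.65 with Sox17, 0.67 with Gata4 and 0.35 with Sox7, against 0.01 over all genes. The members of highest level differed among themselves. Sparc, a collagen-binding matrix protein, had rho of 0.65 with Sox17 and 0.53 with Sox7, and Lamb1, a laminin chain, had 0.65 and 0.53. Serpinh1, a collagen chaperone, had 0.73 with Sox17 and 0.36 with Sox7. Apoe, an apolipoprotein, was counted in all 48 cells and had 0.38 with Sox17. Ttr and Afp, transport proteins of later visceral endoderm, had no count in any cell.

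Epiblast genes went the other way in part. All 14 were tested, and rho was at most -0.5 for 4 with Gata6, 5 with Sox17, 4 with Gata4, 3 with Foxq1 and none with Sox7. Over all genes the share was 0.527% for Gata6, 1.14% for Sox17, 1.47% for Gata4, 1.47% for Foxq1 and 0.223% for Sox7. Nanog had rho of -0.81 with Sox17 and -0.36 with Sox7. Zfp42, a pluripotency-associated zinc finger gene, had -0.61 with Sox17 and -0.08 with Sox7. Pou5f1, a pluripotency factor kept in early PrE, had -0.26 with Sox17, and Tdgf1, the Nodal co-receptor, had -0.34. The count of negative values thus covered a minority of the list.

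The other endoderm factors and relatives of the 6 genes were mostly scarce. Of 17 genes, 9 passed the limit on the mean, and rho was at least 0.5 for 1 with Gata6, 3 with Sox17, 2 with Gata4 and 3 with Foxq1. Over all genes the share at this limit was 0.581% for Gata6, 1.33% for Sox17, 1.17% for Gata4 and 1.27% for Foxq1. The median rho of the list was 0.04, 0.10, 0.03 and 0.07 with these 4 factors, against 0.01 over all genes. Klf5, a Krüppel-like factor, and Sall4, a zinc finger factor of pluripotent and early PrE cells, were detected in all 48 cells, with rho of 0.73 and 0.52 with Sox17. Sox2, an epiblast SOX factor, was lower where Sox17 was higher, with rho of -0.63. Among the closest relatives, Sox18 was detected in 1 cell, Foxa1 in 1, Foxa3 in 1 and Gata3 in 5, and Gata5 had no count in any cell.

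The genes whose levels were most like those of each factor were found by rho over the 48 cells among genes with a mean log2(FPKM + 1) above 0.5. Medians in cells with and without a factor are given for some of them. A difference between these medians follows from the choice by rho and is not a separate result. For Gata6 the highest was 1010001N08Rik (rho = 0.74), a transcript on the opposite strand whose exons share 93 bases with those of Gata6, so that reads from the shared bases cannot be told apart. Next came Gpat3, an enzyme of glycerolipid synthesis (0.72), Slc1a3, a glutamate transporter (0.70), Snai1, a zinc finger repressor (0.69), and Dusp4, a phosphatase of MAP kinases (0.67). The lowest were Nanog (-0.73), the claudin gene Cldn4 (-0.71) and the ETS factor gene Spic (-0.70). Dusp4 had a median of 9.91 FPKM in cells with Gata6 and 3.37 FPKM in the others.

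For Sox17 the genes most alike were Col4a1 (0.80) and Col4a2 (0.76), which encode type IV collagen chains, P4ha1 (0.80), a collagen prolyl hydroxylase, Aqp8 (0.79), a water channel, and Slc7a6 (0.76), an amino acid transporter. Col4a1 had a median of 15 FPKM in cells with Sox17 and 3.87 FPKM in cells without. The lowest were Nanog (-0.81), Klf2 (-0.77), a Krüppel-like factor of naive pluripotency, and Spic (-0.74).

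For Gata4 they were Cpn1 (0.80), a carboxypeptidase, Aqp8 (0.80), Sdc4 (0.78), a heparan sulphate proteoglycan of the cell surface, Glipr2 (0.78) and Fgfr2 (0.76), an FGF receptor. Fgfr2 had a median of 6.84 FPKM in cells with Gata4 and 0 in cells without. The lowest were Klf2 (-0.82), Nanog (-0.79) and Sfn (-0.78), which encodes a 14-3-3 protein. Aqp8 was thus among the closest genes for Sox17, Gata4 and Foxq1, with a median of 205 FPKM in cells with Sox17 and 16.9 FPKM in cells without.

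For Foxq1 the closest gene was A530084C06Rik (0.84), which lies on the opposite strand and shares 3200 of the 4843 exon bases of Foxq1. Smart-seq2 does not mark the strand, so counts of Foxq1 are uncertain in this region. A530084C06Rik held 438 counts in all and Foxq1 4783, which does not show how reads from the shared bases were assigned or lost. Only 1643 exon bases of Foxq1 were unshared, while its FPKM was computed on all 4843. The detection share, position and levels of Foxq1 carry this limit. Then came Serpinh1 (0.81), Lama1 (0.81), which encodes a laminin chain, Aqp8 (0.80) and Ctsl (0.80), a lysosomal protease. Lama1 had a median of 31.3 FPKM in cells with Foxq1 and 1.68 FPKM in the others. The lowest were Tmem41b (-0.77), the pseudogene Gm6223 (-0.77) and Trim43a (-0.76), of which the last 2 may share reads with near copies.

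No gene was as close to Sox7. The highest were Gabarap (0.57), an autophagy gene, Jam3 (0.56), a junction protein, Golm1 (0.54), a Golgi membrane protein, Eno1b (0.54), which may share reads with Eno1, and Relt (0.54), a receptor of the TNF receptor family. The lowest were the deubiquitinase gene Mindy1 (-0.67), Slc24a5 (-0.61), an ion exchanger, and the proteasome gene Psmd7 (-0.58). Jam3 had rho of 0.37 in the set of cells holding Y-linked counts and 0.78 in the other set. In a gene with 30 cells at 0 these values rest on few cells.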

How the data were processed

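Single cells from ICMs at E3.75 were sequenced by Smart-seq2. The authors aligned reads to mm10 (per the labels, with STAR, version not given in the sources used here), counted them on Ensembl 87 genes with HTSeq, and deposited raw counts for 48 cells, all of which were used. The methods exclude shallow or skewed libraries from analysis without naming cells. From these counts, CPM was computed on each cell's total, and FPKM on the union of exons in GENCODE M21 with library sizes by the median of ratios, for 21858 genes; 85 others with reads lacked an exon length. Levels were compared as log2(FPKM + 1).

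Total counts ranged from 1718970 to 7342785, and the 48 cells were 1 sample. The methods' scde test was not run, because cells are not replicates, and doublets were not called. The members and lists were chosen with earlier results of these data known. Genes named are the members, for each member in at least 10 cells the 5 with the highest and 3 with the lowest rho, and the 4 of highest mean FPKM in each list; the relatives of the 6 genes and the zero counts of Ttr and Afp were chosen after their values were seen. Some items are not reported here. Lists covered other endoderm factors, PrE genes, epiblast genes, and markers of ICM, trophectoderm and cells foreign to the blastocyst. Alternatives changed the detection minimum, depth, library size, pseudocount, filter and cells used. The correlation step was tested on simulated data. Scripts used scipy 1.17.1, pandas 2.3.3, numpy 2.4.6 and matplotlib 3.10.9 under Python 3.11.15.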

Additional observations from a re-analysis of the deposited data

How the results depend on the processing

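The share of cells that fit the order Gata6, Sox17, Gata4, Sox7 was 83.3% to 94.7% under 16 alternatives, within the interval of the main value, and the named order fit more cells than any other in 15 of them, the exception being a minimum of 50 CPM. That minimum gave detection shares of 66.7% for Gata6, 45.8% for Sox17, 6.25% for Sox7, 20.8% for Foxq1 and 0% for Foxa2 (0 of 48 cells), and 100% of Sox17 cells then held Gata6. At 1 count Gata4 was detected in 77.1% of cells, and at 5 FPKM Gata6 in 70.8% and Foxq1 in 29.2%. Among the 24 cells of at least the median total, Gata6 was detected in 95.8%, and 100% of Sox17 cells held Gata6 and 100% of Sox7 cells held Gata4. Within cells without Y-linked counts, 100% of Gata4 cells held Sox17. Thinning every cell to 1718970 counts left 87.5% of cells on the order. Leaving out 1 well letter gave 87.5% to 92.5%. The numbers of genes with rho of at least 0.5 were larger within the smaller sets of cells, from 65 to 351 for Gata6, 131 to 463 for Gata4, 149 to 460 for Sox17, 142 to 498 for Foxq1, 25 to 432 for Sox7 and 4 to 283 for Foxa2 in the 19 cells without Y-linked counts, where fewer cells widen the spread of rho; for Sox7 it was 11 with Pearson's r at a pseudocount of 0.1. Depth limits the zeros: a factor below 0.409 to 1.75 CPM would be missed. This floor covers counting error only, and transcripts lost before sequencing, which were not measured, could also give a 0. No paired analysis was possible because the cells form 1 group.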

Other observations

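Of 8 genes foreign to the blastocyst that were looked up as a floor, 6 had no count in any cell. Myod1, the muscle determination factor, was counted in 15 cells and reached 10 CPM in 8, with up to 220 counts and 24.5 FPKM, and Cd3e, a T cell receptor subunit, was counted in 12 cells and reached 10 CPM in 2. By the same minimum Foxa2 was detected in 4 cells and Sox7 in 14. The levels of Myod1 had rho of -0.15 with Gata4 and -0.01 with Sox7 over the 48 cells.

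Hnf4a, a nuclear receptor of visceral endoderm, was detected in 10 cells with up to 42.7 FPKM, and its rho was -0.06 with Sox17 and -0.30 with Gata4. Hhex, a homeobox gene of anterior visceral endoderm, was detected in 18 cells with rho of 0.16 with Sox17. Eomes, a T-box gene on both the endoderm and the trophectoderm lists, was detected in 19 cells with up to 15.1 FPKM and rho of 0.10 with Sox17.

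Foxq1 was detected in 10 of 29 cells with Y-linked counts and in 11 of 19 without them, with highest levels of 16.3 and 41.2 FPKM. In letter D, where all 8 cells lacked Y-linked counts, 6 held Foxq1, against 2 to 4 in each other letter. The 2 groupings cannot be told apart here. Foxa2 was detected in 1 cell with Y-linked counts and in 3 without them.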
